A study of Mus musculus with 2 samples.

Results

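Spink1, Spink5, Cst3, Cst6, Cstb and Slpi encode protease inhibitors, and their RNA was followed through the cell classes of the mouse thymic medulla with and without Hnf4a and Hnf4g. They were taken by gene symbol, 6 of the 55487 genes in the count matrix, and their UMI counts (molecular tags, 1 for each captured RNA molecule) were summed per cell class and sample. Cells were thymic epithelial cells of C57BL/6 mice from the sort for medullary cells with little MHC (mTEClo) that carried neither Pdpn nor CD104. The 3 Hnf4ctrl samples were Foxn1(cre/+) Hnf4a(fl/+) Hnf4g(+/-), and the 4 Hnf4dTEC samples were Foxn1(cre/+) Hnf4a(fl/fl) Hnf4g(-/-). Both groups therefore carried Foxn1-cre, a floxed Hnf4a allele and a null Hnf4g allele, so the controls were not wild type. Foxn1-cre acts in thymic epithelial cells, while the Hnf4g allele is null in every cell. The age of the mice is not given in the sources used here. All samples were tagged with hash antibodies and went through 1 droplet run, and the labels leave unsaid whether the samples were different mice. All p-values therefore cover only the spread among these 7 samples. The genes were chosen with a result of these data in view: Spink1 and Cst6 in Keratinocyte cells, and Cst6 over all cells, most of which is Keratinocyte RNA, are therefore described with no test and enter no count of calls.

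Medullary thymic epithelium holds mimetic cells, which switch on the programs of peripheral tissues such as skin, gut, airway and muscle and so show their proteins to developing T cells. Serine proteases are held in check by Kazal-type inhibitors, such as the Spink family, and by WAP-domain inhibitors, such as Slpi. Cysteine proteases of lysosomes (the cathepsins) and legumain are held in check by cystatins, which plug the active site with a wedge of loops. A loop among them carries the conserved residues Q, V and G with a free position on each side of V.

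The coding stretches of that loop are shown for the 3 cystatins because it is the feature that joins them as 1 family of cysteine protease inhibitors. They come from the GENCODE M21 transcripts on build GRCm38, 27 bases each, and capitals mark the codons of Q, V and G.
Cst3: cgtaagCAGctcGTGgctGGAgtgaac
Cst6: aaatatCAGctgGTGgctGGCatcaag
Cstb: aagagaCAGataGTGgctGGCaccaac
The pattern occurred 1 time in each coding sequence. It starts at codon 75 of 140 in Cst3 (chr2:148872913-148875161, minus strand, across an exon junction). In Cst6 it starts at codon 80 of 149 (chr19:5348505-5349103, minus strand, across an exon junction). In Cstb it lies within 1 exon and starts at codon 46 of 98 (chr10:78426990-78427016, plus strand).

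The authors gave 9185 cells a class and a sample, 3295 in control and 5890 in mutant samples. Samples held 801 to 1652 cells and 10127838 to 25821970 UMIs, with 11528 to 15053 UMIs in the median cell. A level is given as CPM, the count scaled to 1000000 UMIs of that class in that sample, for samples with at least 10 cells of the class. Hnf4a RNA was 1.68 to 3.18 CPM in control and 0.67 to 2.27 CPM in mutant samples, with overlap, and Hnf4g RNA was 116 to 122 against 78.1 to 88.4 CPM. The deleted exons are not given in the sources used here and the tags come from the 3' end, so these levels do not check the deletions. Barcodes outside the annotation with fewer than 500 genes, 2288 in number, had a median of 750.5 UMIs and up to 80 Spink1 or 90 Cst6 UMIs in a barcode. Whether they hold free RNA or damaged cells was not tested. Their levels were Spink1 194, Spink5 172, Cst3 148, Cst6 319.6, Cstb 308 and Slpi 9.22 CPM.

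The 6 genes had 3 patterns across the classes of control samples. Spink1, Spink5 and Cst6 had most of their UMIs in 1 to 3 classes, Cst3 and Cstb were found in every class, and Slpi was found in few cells of any class. Of the Spink1 UMIs of controls, 47.7% came from Secretory, 23.5% from Entero-hepato and 12.4% from Klk-rich cells, against 63.9%, 3.11% and 11.8% in mutants. Spink5 came from Keratinocyte (60.3%) and Secretory cells (32.2%) in controls, and in mutants from Keratinocyte (39.4%) and Secretory cells (55.1%). Keratinocyte cells supplied 75.8% of Cst6 in controls and 64.8% in mutants, and were 8.71% and 8.17% of the cells. Other classes were lower but not at the floor: control means reached 710 CPM for Spink1 in Neuroendocrine cells, and Cst6 was 949 CPM in Secretory and 391 CPM in Aire-expressing cells. Single cells raised the Neuroendocrine and Secretory means. Without the highest cell of each sample, control samples 1 to 3 had 6.78, 75.4 and 166 CPM of Spink1 in Neuroendocrine cells. In the same way Cst6 was 290, 323 and 244 CPM in Secretory cells. These classes came from the authors' clustering, which could use the same genes, so levels between classes are a description with no test.

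**Figure D1:**
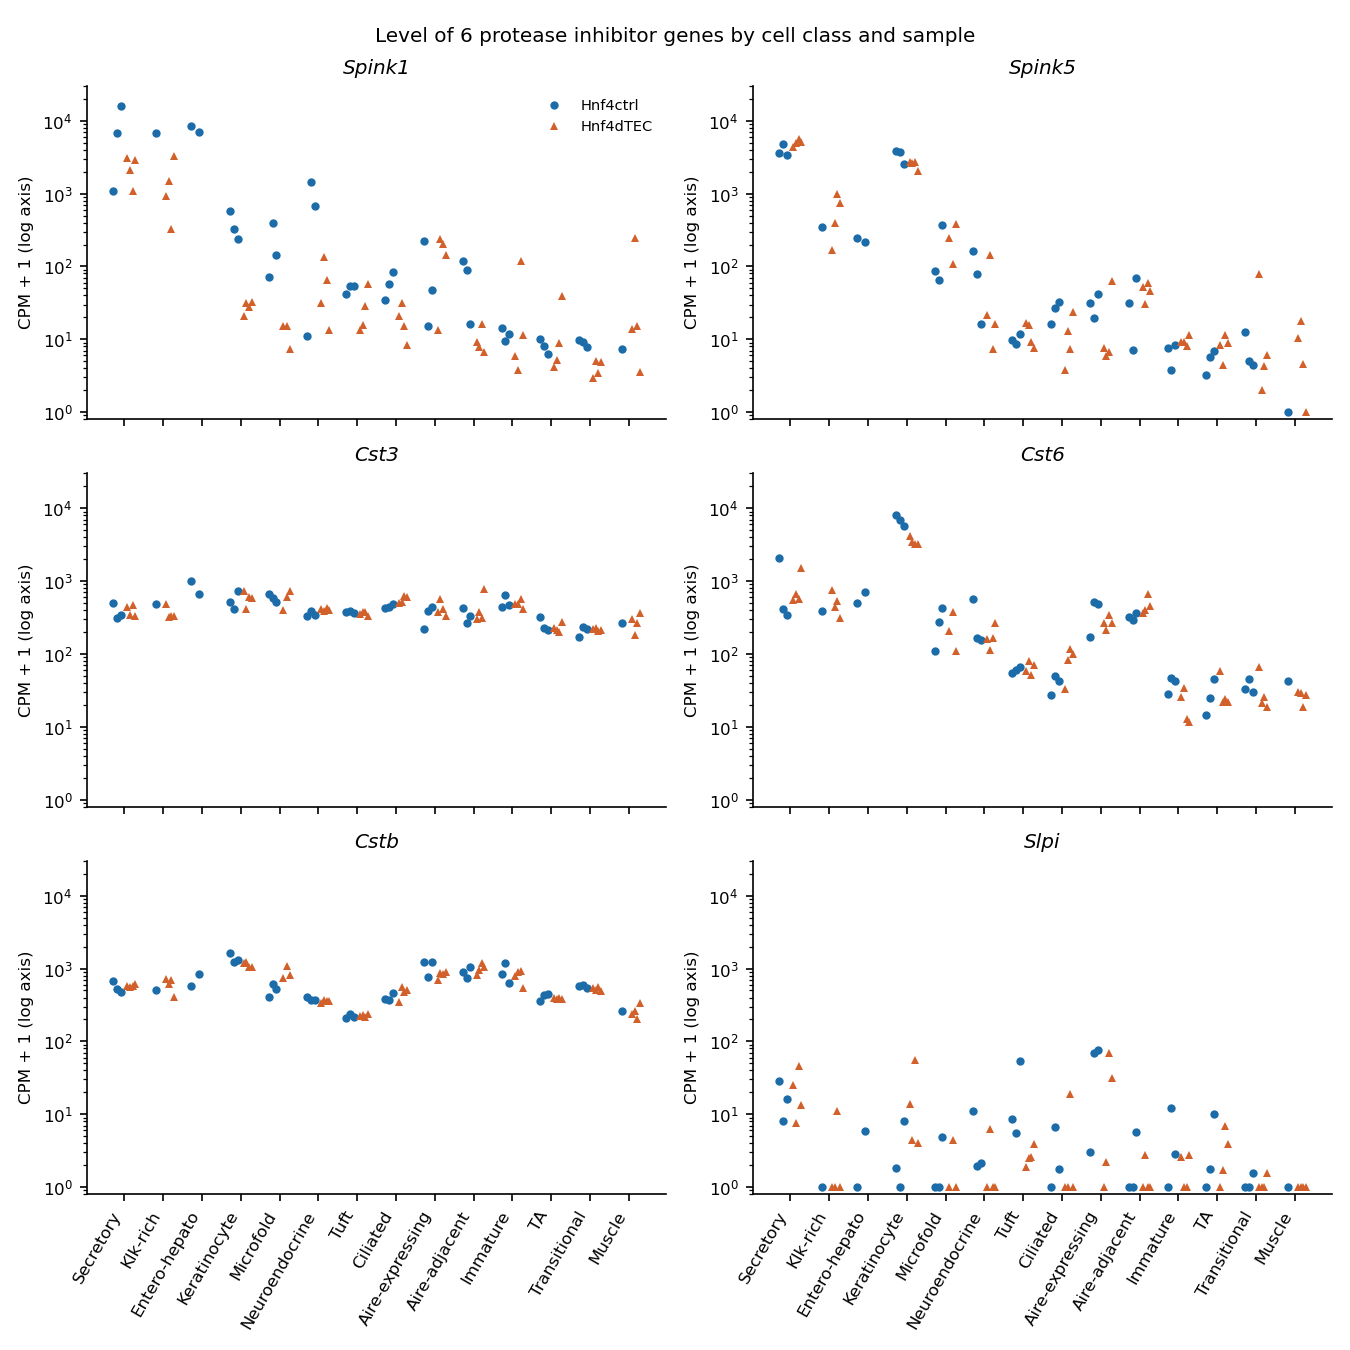
CPM + 1 of each gene (log axis) in 14 cell classes; each point is 1 sample with at least 10 cells of the class, circles for Hnf4ctrl and triangles for Hnf4dTEC. Spink1, Spink5 and Cst6 span several orders of magnitude between classes, while Cst3 and Cstb stay between 168 and 1649 CPM.

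The concentration of the RNA in single cells followed the same division. The 92 cells with most UMIs of a gene, 1% of all cells, held 79.7% of Spink1, 68.7% of Cst6 and 92.3% of Slpi. The same number of cells held 35.6% of Spink5, 13.5% of Cst3 and 11.8% of Cstb. A cell with at least 50 UMIs of a gene is called a high cell below; there were 148 for Spink1, 362 for Spink5, 125 for Cst6 and 8 for Slpi. A sum over a class with few high cells can therefore rest on 1 cell. That cell's count is given for some such values but not for all, so a value without it may also rest on 1 cell.

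**Figure D2:**
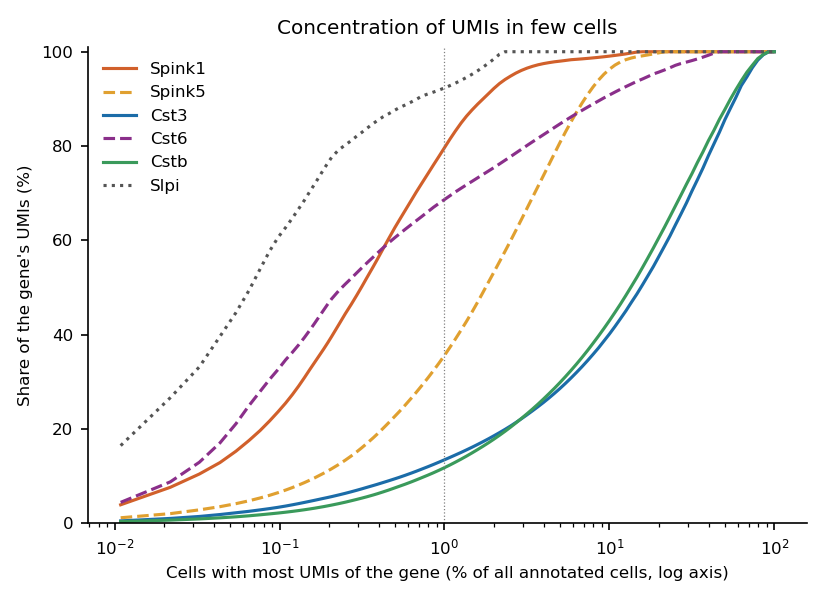
Share of each gene's UMIs (y axis, percent) held by the cells with most of it (x axis, percent of all 9185 cells, log axis). At 1% of cells (dotted line) the curves lie between 11.8% for Cstb and 92.3% for Slpi.

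Genotypes were compared on counts summed per sample with edgeR's quasi-likelihood test and Benjamini-Hochberg adjustment over all genes tested in that fit, log2 values being Hnf4dTEC over Hnf4ctrl. Over all cells, 5 genes were tested besides Cst6, and none passed an adjusted p of 0.05 with edgeR or DESeq2, where 0.184% and 0.967% of all genes did (7 genes in place of 39 with the replicate number as a block, a fit that leaves out mutant sample 4). At an unadjusted p of 0.05, Spink1 alone passed, as did 6.65% of all genes. Within the 11 classes with enough cells, 51 of 64 gene and class pairs passed the filter on low counts, and 1 was called, Spink1 in Microfold cells, lower in the mutant samples. Over the same 11 classes 0.192% of all genes were called, and 0.228% with DESeq2, which called 3 pairs. With no filter on low counts 13 pairs and 1.04% of all genes were called. The background was 3.03% of genes called in Microfold cells; in Keratinocyte cells it was 0.0799%, from which nothing is read. In the other 9 classes none of the 43 tested pairs passed edgeR's test, against a background of 0.0643%. There 8 pairs had an unadjusted p under 0.05, where 5.78% of all genes did, and DESeq2 called 2, where it called 0.138% of genes. In a further test of whether the genotype effect differed between a class and all other cells of the same samples, 3 of 64 pairs passed, Spink1 and Cstb in Microfold and Spink1 in Immature cells. There the backgrounds were 1.35% of genes in Microfold, 0.223% in Immature and 0.00856% in the other 9 classes, in which 15 of 52 pairs had an unadjusted p under 0.05, as did 4.77% of all genes. For Cst6 the other cells held the Keratinocyte UMIs that chose the gene, so its values in this further test are not free of that choice. Cst6 in Aire-adjacent, Ciliated, Secretory and Tuft cells is among the 15, and nothing is read from that count. With no filter 19 pairs passed this further test, and 0.434% of all genes in place of 0.142%.

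**Figure D3:**
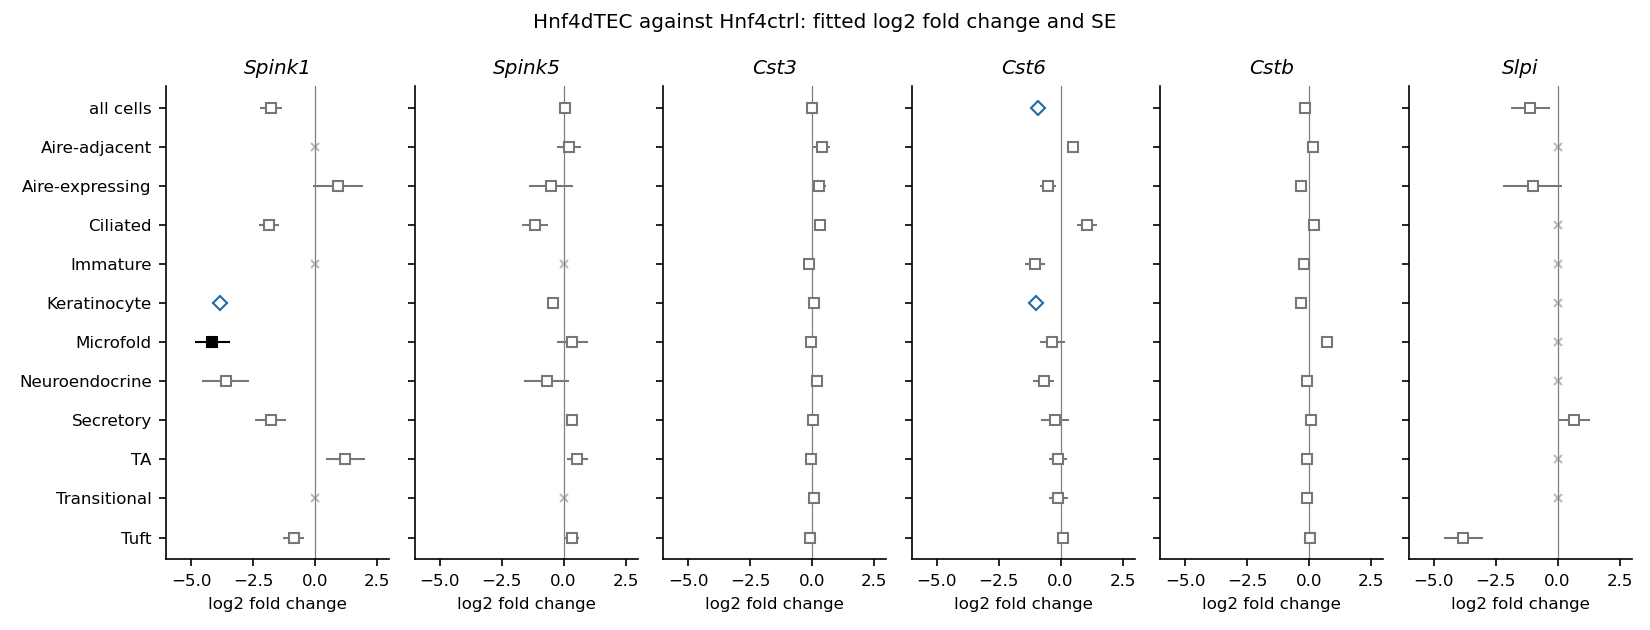
Fitted log2 fold change of Hnf4dTEC over Hnf4ctrl (x axis) for each gene over all cells and in 11 classes; bars are the SE, a filled square passed an adjusted p of 0.05, open squares did not, open diamonds are values described with no test, and a cross marks a gene that did not pass the filter on low counts. The filled square is Spink1 in Microfold cells.

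All 6 genes are protein coding, and their places in GRCm38 are given with each. Spink1 (18:43728082-43737557, minus strand) is a small secreted inhibitor of trypsin, best known from pancreatic juice and also made by gut epithelium. In Keratinocyte cells, the class of skin-like mimetic cells, Spink1 was 581, 323 and 235 CPM in control samples 1, 2 and 3 and 20.2, 30.7, 26.8 and 31.6 CPM in mutant samples 1 to 4. Every control sample was above every mutant sample. The means were 379.8 ± 179.7 (SD, n = 3) and 27.3 ± 5.19 CPM (SD, n = 4), a log2 difference of -3.84 (SE 0.31). A Spink1 UMI was found in 24 of 85, 17 of 74 and 31 of 128 control Keratinocyte cells and in 19 of 143, 19 of 120, 19 of 121 and 9 of 97 mutant cells. With each cell thinned to 5000 UMIs the shares were 19.5%, 13.2% and 19.2% against 4.65%, 8.85%, 11.1% and 2.22%. Tuft cells, taken as a class with little Spink1 although 6 of their 4118 cells held at least 50 UMIs, had 4.60% to 6.24% over the 7 samples at the same depth. Mutant samples 2 and 3 lay above that range, mutant sample 1 in it and mutant sample 4 below it. Other classes with little Spink1 gave other ranges at this depth. Transitional cells had 0% to 2.35% in mutant and 0% to 9.09% in control samples, and transit-amplifying cells 2.60% to 3.70% and 3.36% to 8.51%. The labels' sort was the same for both genotypes, and fewer cells making the RNA cannot be told apart from less RNA per cell in a sum.

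High cells carried most of the control signal. Control samples held 5, 1 and 2 Keratinocyte cells with at least 50 Spink1 UMIs and the mutant samples held none. Those 8 cells supplied 915 of the 1342 control UMIs. They also carried 7419 CPM of a 15-gene list of gut and liver markers, against 1367 CPM in the other 279 control cells and 492 CPM in the 481 mutant cells. Keratinocyte markers were 13889, 16279 and 15182 CPM in the same 3 sets. Over whole samples the gut and liver sum in Keratinocyte cells was 2559, 703 and 1314 CPM in controls and 167 to 1565 CPM in mutants, most of it Reg3g, while Apoa1 was at 0 in the controls. Scrublet marked 1 of the 8 high cells as a doublet. The part of gut-like RNA in the Spink1 difference was not tested. Outside the high cells Spink1 was 64.7, 203 and 116 CPM in control samples 1 to 3. The mutant samples held no high cell and had 20.2, 30.7, 26.8 and 31.6 CPM, a smaller gap with no overlap. With the highest cell of each sample left out the log2 difference was -3.95.

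**Figure D4:**
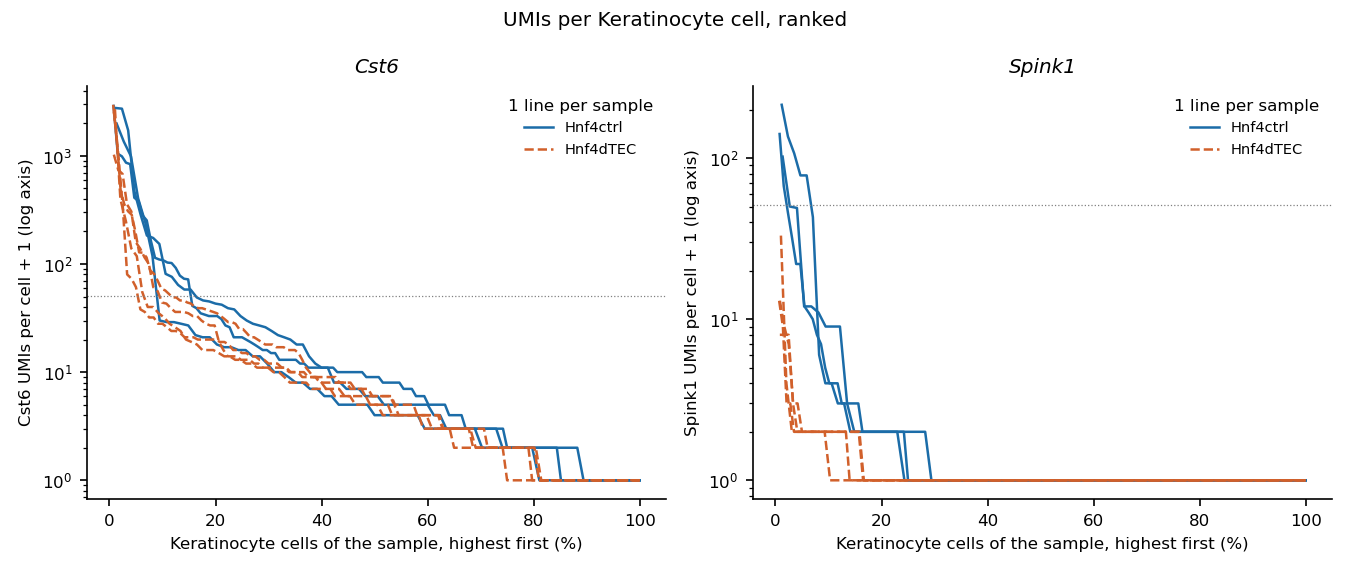
UMIs + 1 per Keratinocyte cell (log axis) of Cst6 and Spink1, cells of a sample ranked from the highest; each line is 1 sample, solid for Hnf4ctrl and dashed for Hnf4dTEC, and the dotted line is 50 UMIs. Spink1 passes 50 UMIs in 8 control cells and in no mutant cell, while Cst6 passes it in 38 control and 39 mutant cells.

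Microfold cells resemble the gut cells that sample the lumen over lymphoid follicles. Spink1 was 71.3, 398 and 142 CPM in control samples 1 to 3 and 14.4, 14.0 and 6.39 CPM in mutant samples 1 to 3; mutant sample 4 had 8 Microfold cells and was not used. The groups did not overlap. Spink1 fell by 4.14 on the log2 scale (SE 0.70, adjusted p = 0.0168 with edgeR's quasi-likelihood test; 204 ± 172 against 11.6 ± 4.50 CPM, n = 3 and 3). It was 1 of 141 genes called in this class, a number that was 73 with the replicate number as a block. The fall was greater than in the other cells of the same samples by 2.18 (SE 0.45, adjusted p = 0.00245, edgeR's quasi-likelihood test). The class was small, 18 to 33 cells a sample, and the sums were 19, 119 and 74 against 4, 4 and 2 UMIs. Of these, 11, 69 and 41 UMIs came from the highest cell of each control sample, and 3, 2 and 2 from that of each mutant sample. The call was lost without mutant sample 1 (adjusted p = 0.0796, edgeR) or 3 (0.0585), and the difference from the other cells without control sample 2 (-1.62, adjusted p = 0.0627). Without the highest cell of each sample Spink1 did not pass the filter on low counts in this class. The gut and liver sum in Microfold cells was 7687, 13241 and 8447 CPM in controls and 2388 to 3153 CPM in mutants. Every gene of the list except Cdx1 had more UMIs in the control cells. Those counts per gene are not scaled to depth. Control samples 1 to 3 held 266422, 298689 and 520640 UMIs in this class, and mutant samples 1 to 3 held 278481, 286006 and 313082. Microfold markers were 17039 to 17664 against 12159 to 15938 CPM.

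Secretory cells, which resemble airway and gland epithelium, held the largest share of Spink1 UMIs, with a wide spread between samples. Levels were 1082, 6740 and 15770 CPM in control and 3110, 2119, 1101 and 2871 CPM in mutant samples, so that control sample 1 lay below all 4 mutant samples. The log2 difference of -1.79 (SE 0.63) did not pass edgeR's test (adjusted p = 0.661). The share of cells with a UMI after thinning was 47.9% ± 17.9 (SD, n = 3) against 30.9% ± 2.53 (SD, n = 4), a difference within the spread of the controls (two-sided exact permutation test over 35 splits, p = 0.286, adjusted p = 0.714 over 5 such tests; the smallest possible p is 0.0571). High cells numbered 2, 12 and 22 against 13, 6, 9 and 9, and they carried 27516 CPM of the gut and liver list in control and 13988 CPM in mutant samples, against 12433 and 8259 CPM in the other Secretory cells.

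Entero-hepato and Klk-rich cells also held much Spink1. Entero-hepato cells, the class named for gut and liver, had 8530 and 6921 CPM in control samples 2 and 3, and the mutant samples held 3 such cells in all. Klk-rich cells, named for kallikreins, had 6749 CPM in control sample 3 against 926, 1497, 325 and 3240 CPM in the mutant samples, with no test. Over all cells Spink1 was 218, 709 and 925 CPM in controls and 203, 159, 119 and 229 CPM in mutants, with control sample 1 inside the mutant range. The log2 difference was -1.79 (SE 0.44, adjusted p = 0.296, edgeR), and it passed without control sample 1 (-2.19, adjusted p = 0.0431). Without Entero-hepato cells it was -1.49 (adjusted p = 0.542).

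In classes with little Spink1 the values rested on few cells. Neuroendocrine cells had 9.98, 1439 and 681 CPM in controls and 30.1, 134, 63.6 and 12.3 CPM in mutants, with 1408 and 898 UMIs in 1 cell each of control samples 2 and 3. The log2 difference was -3.60 (SE 0.95, adjusted p = 0.186, edgeR), -1.70 without the highest cell of each sample and -4.15 (adjusted p = 0.0259) without control sample 1. Tuft cells, chemosensory cells, had 40.4, 53.0 and 53.2 CPM against 12.4, 14.8, 27.8 and 57.1 CPM, a log2 difference of -0.87 (SE 0.41, adjusted p = 0.597, edgeR) that reached -1.46 (adjusted p = 0.0288) with the replicate number as a block. That fit leaves out mutant sample 4, the highest of the 7, and without that sample and with no block the difference was -1.45 (adjusted p = 0.0846). Ciliated cells had 33.7, 57.2 and 82.3 CPM against 19.7, 30.5, 14.1 and 7.26 CPM with no overlap, and the log2 difference of -1.86 (SE 0.42) did not pass (adjusted p = 1.00, edgeR). Without the highest cell of each sample the Ciliated levels were 11.7, 0 and 43.5 against 7.32, 6.33, 5.20 and 6.45 CPM, which overlap. Aire-adjacent cells had 116, 87.8 and 15.4 CPM against 8.28, 6.94, 15.1 and 5.59 CPM with no overlap. Spink1 did not pass edgeR's filter there, and DESeq2 gave -2.97 with an adjusted p of 0.0113. In Immature cells the difference from the other cells was +3.26 (SE 0.58, adjusted p = 0.00046, edgeR), and it rested on mutant sample 3, where 47 of 50 UMIs came from 1 cell; without that sample it was 0.90 and without the highest cell of each sample 0.96, neither of them past the test.

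Spink5 (18:43963235-44022501, plus strand) encodes a secreted inhibitor with many Kazal-type domains that restrains kallikreins in the outer epidermis, and its loss in humans causes Netherton syndrome. In neither of its main classes, Secretory and Keratinocyte, did it pass the test. In Secretory cells Spink5 was 3574, 4764 and 3421 CPM in controls and 4296, 5008, 5547 and 5043 CPM in mutants (log2 difference 0.34, SE 0.15, adjusted p = 0.748, edgeR). In Keratinocyte cells it was 3863, 3708 and 2530 CPM in controls and 2690, 2641, 2730 and 2027 CPM in mutants (-0.44, SE 0.16, adjusted p = 0.585). Control samples 1 and 2 were above all mutant Keratinocyte values and control sample 3 lay among them. A UMI was found in 87.3% to 100% of Secretory cells after thinning, 92.4% ± 6.70 (SD, n = 3) in controls and 89.2% ± 2.49 (SD, n = 4) in mutants (two-sided exact permutation test, p = 0.514).

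Spink5 was detected together with Spink1 in Secretory cells and with Cst6 in Keratinocyte cells. After thinning, 27.3%, 55.0% and 49.1% of Secretory cells in control and 26.3% to 28.4% in mutant samples held UMIs of both Spink1 and Spink5. The product of the single shares was 27.3%, 54.0% and 49.2% in controls and 26.3% to 30.1% in mutants, and Spearman's rho across cells ran from -0.13 to 0.18. In Keratinocyte cells 55.8% to 70.4% held both Cst6 and Spink5 over the 7 samples, where the product was 52.4% to 69.6% and rho across cells ran from 0.24 to 0.49. Cells of a sample share a library, so rho is a description. Elsewhere Spink5 was low, 2.27 to 5.88 CPM in transit-amplifying (TA) cells of controls and 7.55 to 10.9 CPM in control Tuft cells. Over all cells its log2 difference was 0.05 (SE 0.22, adjusted p = 1.00, edgeR).

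Slpi (2:164354070-164389095, minus strand; Mir7678 overlaps it on the same strand and its reads could be counted with it, and no annotated gene overlaps the other 5) is a secreted WAP-domain inhibitor of neutrophil elastase, typical of airway and other mucosal surfaces. It was found in 206 of the 9185 cells with 1486 UMIs in all, 42.7% of them in Aire-expressing and 33.0% in Tuft cells. In Aire-expressing cells, the medullary stage that transcribes many tissue-restricted genes, Slpi was 2.02, 67.7 and 76.4 CPM in controls and 0, 1.21, 68.6 and 30.4 CPM in mutants, with full overlap. The 0 of mutant sample 1 allows up to 1.67 CPM (3 counts in that class, counting error only). In Tuft cells Slpi was 7.74, 4.57 and 53.3 CPM against 0.92, 1.48, 1.60 and 2.91 CPM, and the groups did not overlap. The log2 difference was -3.80 (SE 0.78), which did not pass edgeR's test (adjusted p = 0.161) and passed DESeq2 (0.0232). A single Tuft cell of control sample 3 held 245 of that sample's 368 UMIs, and without the highest cell of each sample the difference was -2.71 (adjusted p = 0.173, edgeR). Slpi passed the filter on low counts in 3 of the 11 classes, and the thinned share of Aire-expressing cells was 2.49% ± 2.30 (n = 3) against 1.59% ± 1.72 (n = 4; two-sided exact permutation test, p = 0.629).

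Cst3, or cystatin C (2:148871722-148875692, minus strand), is secreted by nearly all cell types and inhibits lysosomal cathepsins outside the cell. Over all cells Cst3 was 388, 377 and 388 CPM in controls and 387, 378, 395 and 362 CPM in mutants, a log2 difference of -0.00 (SE 0.05, adjusted p = 1.00, edgeR). The controls were highest in Entero-hepato cells, 989 and 661 CPM, then in Microfold (592 ± 73.0 CPM, n = 3) and Keratinocyte cells (547 ± 159, n = 3), and lowest in Transitional cells (207 ± 34.8, n = 3). Neighbours in that order lay within their spread, with Microfold and Keratinocyte overlapping. In Microfold cells the mutant values of 406, 605 and 722 CPM lay around the control values of 668, 586 and 522 CPM. The thinned share of Microfold cells with a UMI was 74.1% ± 6.66 against 83.3% ± 2.96 (n = 3 and 3; two-sided exact permutation test over 20 splits, p = 0.2, where the smallest possible p is 0.1). In no class did Cst3 pass edgeR's test; 1 of its 11 class tests had an unadjusted p under 0.05 (Neuroendocrine, 0.22, SE 0.09, adjusted p = 0.555).

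Cst6, or cystatin M/E (19:5344705-5349574, minus strand), is secreted by cornifying epidermis and inhibits cathepsin L and legumain, which keeps the maturation of skin barrier proteins in order. In Keratinocyte cells Cst6 was 8144, 6793 and 5767 CPM in control samples and 4132, 3478, 3226 and 3203 CPM in mutant samples. All controls were above all mutants. The means were 6901 ± 1192 (SD, n = 3) and 3509.6 ± 433 CPM (SD, n = 4), a log2 difference of -1.0 (SE 0.14), against -0.77 (SE 0.22) relative to the other cells of the same samples.

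The counts per cell are a description, as a division at 50 UMIs is made on the level of Cst6 itself. A UMI was found in 74.0%, 73.5% and 75.8% of thinned control Keratinocyte cells and in 73.6%, 67.3%, 75.9% and 72.2% of mutant ones. The median cell had 5, 3 and 8 UMIs in controls and 5, 4, 5 and 4 in mutants. High cells were 13 of 85, 6 of 74 and 19 of 128 in controls and 16 of 143, 6 of 120, 11 of 121 and 6 of 97 in mutants, and they held 91.0% to 92.5% of control and 81.4% to 85.7% of mutant UMIs. Outside the high cells Cst6 was 742, 601 and 641 CPM in control samples 1 to 3. In mutant samples 1 to 4 it was 745, 623, 681 and 494 CPM there, and the groups overlapped. Without the highest cell of each sample the log2 difference was -1.28.

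The Cst6-high cells held more RNA of skin genes than the rest of their class in both genotypes. Their summed Keratinocyte markers were 33628 CPM against 12783 CPM in the other Keratinocyte cells of controls, and 37647 against 12578 CPM in mutants. Genes of the cornified envelope, the cross-linked protein shell of dead skin cells, were 7048 against 3032 CPM in controls and 10588 against 3156 CPM in mutants. In each genotype 9 of the 10 genes were higher in the Cst6-high cells; the exceptions were Tgm3 in controls (38.1 against 68.1 CPM) and Tgm5 in mutants (25.2 against 28.9 CPM), both transglutaminases. Asprv1, Sprr1a and Flg supplied most of the sum. The gut and liver list was 460.4 against 1791 CPM in controls, the reverse of the Spink1-high cells. As the class was clustered on such genes, these values are a description.

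**Figure D5:**
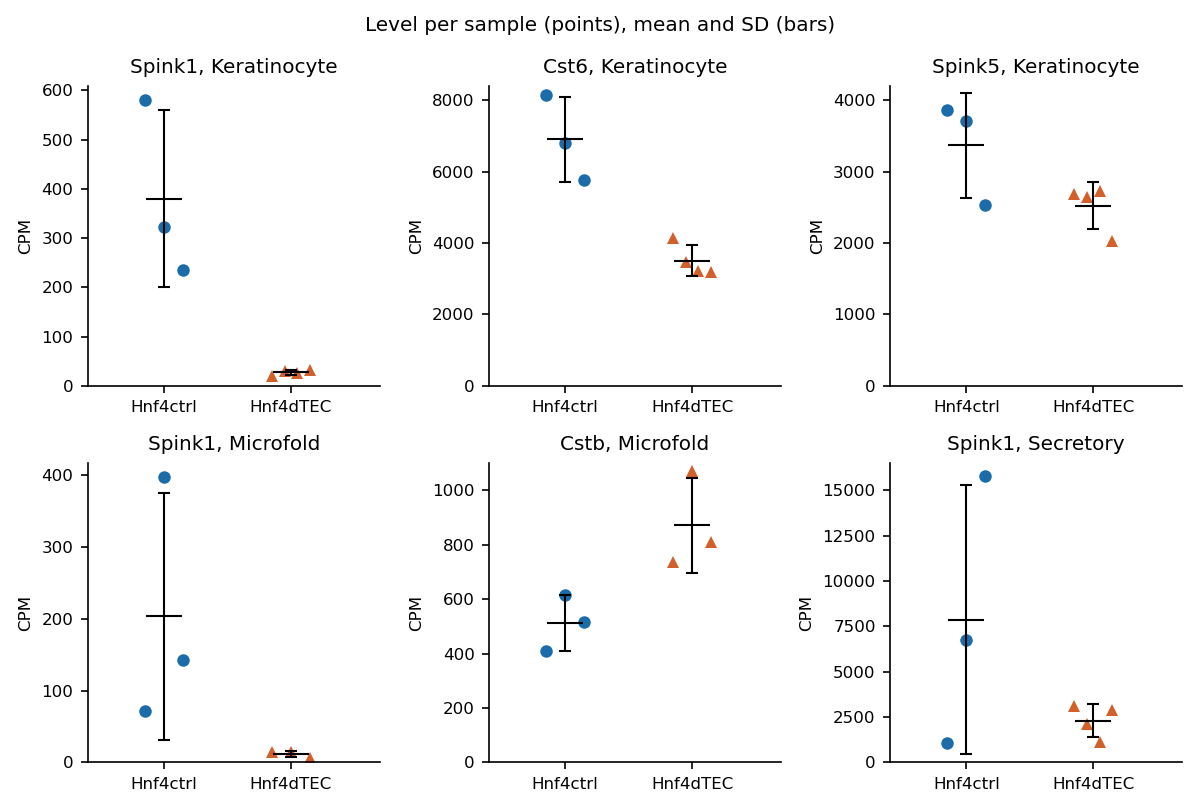
CPM per sample (points; circles Hnf4ctrl, triangles Hnf4dTEC) with mean and SD (bars) for 6 pairs of gene and class, each on its own linear axis from 0. Groups are apart for Spink1 and Cst6 in Keratinocyte and for Spink1 and Cstb in Microfold cells, and overlap for Spink5 in Keratinocyte and Spink1 in Secretory cells.

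Outside Keratinocyte cells Cst6 passed edgeR's test in no class that was fitted. Its log2 difference was 0.52 (SE 0.21) in Aire-adjacent, 1.06 (SE 0.39) in Ciliated and -1.03 (SE 0.39) in Immature cells. These are among the 8 pairs above with an unadjusted p under 0.05 in edgeR's test. In Tuft cells Cst6 was 53.8 to 65.5 CPM in control and 49.6 to 78.0 CPM in mutant samples. In Secretory cells it was 2093, 413 and 342 CPM in controls and 546, 657, 558 and 1489 CPM in mutants, where 459 of 530 UMIs of control sample 1 and 1072 of 1303 UMIs of mutant sample 4 came from 1 cell each. Over all cells Cst6 was 1094, 589.5 and 562 CPM in controls and 459.5, 379.9, 365 and 366 CPM in mutants with no overlap. The log2 difference was -0.92 (SE 0.23), and -0.20 without Keratinocyte cells. It is given with no test, since most of these UMIs are the Keratinocyte UMIs that chose the gene.

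Cstb, or cystatin B (10:78425669-78427622, plus strand), stays inside the cell, where it guards the cytosol and nucleus against leaked cathepsins, and its loss in humans causes a progressive myoclonus epilepsy. Control levels were highest in Keratinocyte (1395 ± 224 CPM, n = 3) and Aire-expressing cells (1078 ± 267 CPM, n = 3), which overlapped, and lowest in Tuft cells (221 ± 16.5 CPM, n = 3), below every other class with at least 3 control samples. In Keratinocyte cells Cstb was 1649, 1223 and 1314 CPM in controls and 1196, 1224, 1044 and 1041 CPM in mutants (-0.33, SE 0.13, adjusted p = 0.605, edgeR). In Microfold cells it was 409, 616 and 517 CPM in controls and 736, 1069.9 and 811 CPM in mutants, all mutants above all controls. The log2 difference there was 0.72 (SE 0.23), which did not pass (adjusted p = 0.123, edgeR), and 0.89 (adjusted p = 0.0430) without the highest cell of each sample. Relative to the other cells of the same samples Cstb in Microfold cells rose by 0.92 on the log2 scale (SE 0.25, adjusted p = 0.0439, edgeR). That call was lost without control sample 1 (0.72, adjusted p = 0.276), control sample 3 (0.89, 0.0675) or mutant sample 2 (0.77, 0.294). In the sums of Microfold cells Spink1 was lower in the mutant samples and passed the genotype test. Cstb was higher there and did not pass it, while Cst3 differed by -0.06 (SE 0.23, adjusted p = 0.944, edgeR).

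Lists of related inhibitors and of their target proteases were compared in the same fits. Of 97 such genes in 8 lists, 77 were tested over all cells, 47 in Keratinocyte, 17 in Microfold and 33 in Secretory cells. None passed edgeR's test in any of the 4 (unadjusted p under 0.05 in 7, 8, 5 and 6 of them, against 6.65%, 7.3%, 16.3% and 6.67% of all genes; DESeq2 called 0), while the median log2 difference of all genes was 0.00, 0.00, 0.01 and -0.01. Among other Kazal-type genes 2 of 11 were tested in Keratinocyte cells, Spink12 (277 ± 174 against 340.2 ± 157 CPM) and Spink4 (57.1 ± 23.5 against 45.0 ± 12.5 CPM). In Microfold cells Spink4, a peptide of goblet and other gut cells, was the only one tested, with 324 ± 459 CPM in control and 22.1 ± 11.3 CPM in mutant samples (-4.02, SE 1.10, adjusted p = 0.0831, edgeR). Of the trypsins and kallikreins, the proteases that Spink proteins inhibit, 12 of 20 were tested in Keratinocyte cells with a median of -0.11. Klk7, a kallikrein that sheds the outermost skin cells, was 399 ± 106 against 374 ± 205 CPM there. In Secretory cells Prss2, a pancreatic trypsin, had 15.6 ± 21.8 against 554 ± 365 CPM (4.99, SE 1.01, adjusted p = 0.201, edgeR).

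Cathepsins and legumain, the targets of cystatins, had a median of -0.06 over the 9 of 11 genes tested in Keratinocyte cells. Ctsl, a cathepsin that Cst6 inhibits, was 206 ± 174 CPM in control and 183 ± 186 CPM in mutant Keratinocyte cells. Genes of the cornified envelope, among which Cst6-high cells stood out, had a median of -0.04 in Keratinocyte cells over 10 of 10 genes tested (lowest adjusted p = 0.884, edgeR). Of these, Sprr1a was 1123 ± 28.5 against 1364 ± 528 CPM and Asprv1, a protease of the skin's granular layer, 1104 ± 78.3 against 1059 ± 176 CPM. Wfdc18, a WAP-domain gene, was 6302 ± 1181 against 4288 ± 811 CPM (-0.58, SE 0.16, adjusted p = 0.425, edgeR). Other cystatins had a median of 0.40 over the 7 of 22 listed genes tested, with Stfa3 at 126 ± 80.9 against 279 ± 105 CPM.

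Genes whose pattern was most like each of the 6 were ranked by Pearson's r of log2(CPM + 1) over the 37 sums of control cells, 1 for each class and sample, among 12055 genes. Sums of 1 sample share a library and classes share their clustering, so r is a description. Spink1 was most like Ugt2b34 (0.84), Atp2b1 (0.83) and Mlph (0.82). Spink5 was most like Gm41715 (0.92), Gabrp (0.91) and Krt78 (0.89), and Cst6 like Il1f6 (0.88), Asprv1 (0.88) and Sdr9c7 (0.87). Among the genes nearest to Cst3 were Lamp1 (0.75) and Ctsd (0.74), which encode lysosomal proteins. Cstb was nearest to Il20rb (0.82), Skint2 (0.81) and Alox15 (0.81), and Slpi to Nefl (0.76), Rep15 (0.61) and 4930570D08Rik (0.61). Among the 6 genes themselves the closest pair was Spink5 and Cst6 (0.84), followed by Spink1 and Spink5 (0.75).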

How the data were processed

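RNA and hash tags of 7 samples were captured with 10x 3' v3.1 droplets, per the labels' protocols. The deposited matrix holds UMI counts as whole numbers; the tools are Cell Ranger 6.1.0 and Seurat 4.0.2, with build mm10, per the submitters' processing notes, although the matrix header gives cellranger 7.0.0. The authors' deposited cell table gave each of 9185 of 18089 barcodes a sample and a class; no barcode was shared between samples, and 45 cells had another sample's tag on top. Scrublet (scanpy 1.11.5) marked 168 of these cells (1.83%), which were kept; doublet treatment before deposit is not given in the sources used here.

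Counts were summed per sample and class and tested with edgeR 4.0.16 (limma 3.58.1, R 4.3.3; filterByExpr, TMM, two-sided) over all genes, in classes with at least 10 cells in at least 3 samples of each genotype; Klk-rich, Entero-hepato, Muscle and Ionocyte cells fell short. The fits were tested on simulated data. Alternatives were DESeq2 1.42.0 as test or scaling, no filter, cells left out, samples left out and the replicate number as a block. Same-numbered samples deviated together over 11812 genes (r = 0.22, 0.13 and 0.35), while samples of unlike number gave r from -0.36 to 0.17. The 0.17 was control 1 with mutant 2, above the 0.13 of control 2 with mutant 2, so number 2 is not set apart as a pair. The labels state no pairing. Shares of cells were compared after thinning each cell to 5000 UMIs, with exact permutation tests (scipy 1.17.1). Intervals of counting error do not cover differences between animals. Members, lists, markers and tests were chosen with earlier results of these data known. All 6 genes are described; from the lists, genes past the test would be named, or else the 2 of highest level, and the 3 most alike genes of each member; the values of some genes are not reported here. Positions and coding stretches came from GENCODE M21 (54349 of 55487 gene identifiers matched).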

Additional observations from a re-analysis of the deposited data

Results flagged for a closer look

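Of 66 groups of 4 mutant samples, 15 had 1 sample far from the other 3. A rate of about 1 in 20 would hold by chance for independent groups of normally spread values. These groups share cells, as all cells include the classes, and some rest on 1 UMI, so no excess over chance is read. In most of the 15 groups 1 cell held most of the UMIs. Spink1 was 119 CPM in Immature cells of mutant sample 3 (47 of 50 UMIs in 1 cell; the others 2.74 to 10.5 CPM) and 38.8 CPM in TA cells of mutant sample 4 (74 of 94 UMIs in 1 cell). Spink5 was 62.6 CPM in Aire-expressing cells of mutant sample 4 (153 of 208 UMIs in 1 cell), 143 CPM in Neuroendocrine cells of mutant sample 2 (173 of 188) and 78.9 CPM in Transitional cells of mutant sample 1 (77 of 82). In Keratinocyte cells Spink5 was low in mutant sample 4, 2027 CPM against 2641 to 2730 CPM, with no cell over 219 of its 2695 UMIs.

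Cst3 was 783 CPM in Aire-adjacent cells of mutant sample 4 (136 of 420 UMIs in 1 cell; the others 303 to 376 CPM). Cst6 was high in mutant sample 1 over all cells (459.5 CPM), in TA cells (56.9 CPM, 71 of 107 UMIs in 1 cell) and in Transitional cells (64.4 CPM, 24 of 67), and in Secretory cells of mutant sample 4 (1489 CPM, 1072 of 1303). Slpi was above 0 in 1 mutant sample alone in Aire-adjacent (1.73 CPM, mutant 2), Ciliated (18 CPM, mutant 3), Neuroendocrine (5.32 CPM, mutant 2) and Transitional cells (0.56 CPM, mutant 4), on 1, 14, 7 and 1 UMIs.

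The genotype effect differed between a class and the other cells of the same samples for Spink1 in Immature cells (3.26 on the log2 scale), Spink1 in Microfold cells (-2.18) and Cstb in Microfold cells (0.92), by edgeR's quasi-likelihood test of the interaction; the samples and cells these rest on stand beside each value above. In the 8904 barcodes with no class, which enter no comparison, Cst3 was 391 CPM, above the highest control sample over all cells (388 CPM) and within the range of the 7 samples, as mutant sample 3 had 395 CPM.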

How the results depend on the processing

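Counts of genes called moved with the test and the filter more than with the scaling. Over all cells 0 of 5 genes were called by edgeR and by DESeq2. Within classes 1 pair was called (0.192% of all genes), 3 with DESeq2 (0.228%), 13 with no filter on low counts (1.04%) and 2 with the replicate number as a block. Class-by-genotype calls were 3 (0.142% of all genes), and 19 with no filter (0.434%). Leaving out 1 sample at a time gave 0 to 1, 0 to 2 and 2 to 4 calls. The shares of all genes called in those fits, and within classes with the block, are not reported here. Nothing is read from these counts. Over those samples left out, the log2 difference ran from -3.36 to -4.10 for Spink1 and from -0.85 to -1.12 for Cst6 in Keratinocyte cells and from -3.30 to -4.55 for Spink1 in Microfold cells. Relative to the other cells it ran from 0.90 to 3.75 for Spink1 in Immature cells, from -1.62 to -2.69 for Spink1 in Microfold cells and from 0.72 to 1.16 for Cstb in Microfold cells. Without the highest cell of each sample, an alternative chosen after seeing the data, Cst6 in Keratinocyte cells was -1.28 and Spink1 in Immature cells 0.96. The replicate number as a block, without mutant sample 4, added Spink1 in Tuft cells and changed no other member's call. Of 744 other log2 values from 56 results, 682 were the same, 14 became stronger, 48 moved and 0 reversed; the cause was not tested. Depth limits the Microfold sums, and Slpi in most classes, to a few UMIs per sample.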
